A study of Mus musculus with 6 samples.

Results

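A set of 10 genes that mark radial glia was followed in embryonic mouse spinal cord with and without Tnc, the gene for the matrix glycoprotein tenascin-C. The set was Nes, Vim, Fabp7, Slc1a3, Prom1, Msi1, Msi2, Ddr1, Zbtb20 and Hopx, listed by name, each represented by the transcript cluster (the probe set of a gene on the array) of highest mean signal that the platform annotation pairs with that symbol alone. All 10 were found among 19938 genes with a single symbol, 9 by 1 cluster and Zbtb20 by 2. Total RNA came from lumbar spinal cord of strain SV129 embryos at E15.5, with 3 wild-type samples and 3 samples of genotype TNC -/-, each on 1 whole-transcript array and called biological replicates. Both groups thus share strain, region and age, and no treatment was applied. The sources used here do not say how the Tnc allele was made, whether embryos were pooled or which litters they came from. P values therefore measure the spread between these 6 samples only.

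Radial glia are the elongated progenitors that line the central canal, send a process to the outer surface of the cord, and give rise first to neurons and later to astrocytes, oligodendrocytes and ependymal cells. They are recognised by their intermediate filaments nestin and vimentin, the brain lipid-binding protein encoded by Fabp7, the glutamate transporter GLAST encoded by Slc1a3, and membrane and RNA-binding proteins of neural progenitors. Tenascin-C is secreted into their surroundings, and the study, by its title, asks how it bears on patterning genes while astrocytes are specified. Several of the markers are made by other cells too: vimentin by fibroblasts and endothelium, nestin by endothelium and muscle precursors, and Prom1 and Fabp7 by other glial and epithelial cells.

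The sequence before the start site is shown for the members that the results turn on: Fabp7, the steadiest with Hopx; Vim, a filament gene; Prom1, whose groups separated; and Zbtb20, the most variable. Each is 250 bases long and ends at the base before the start of a RefSeq transcript on GRCm38.p6, namely Fabp7 at chr10:57784673-57784922 on the plus strand, Vim at chr2:13574061-13574310 on the plus strand, Prom1 at chr5:44101737-44101986 on the minus strand and Zbtb20 at chr16:43247034-43247283 on the plus strand. Capitals mark the TATA box letters TATAAA, the CCAAT box letters CCAAT and TGGGAA, the core bound by RBPJ, the DNA-binding partner of activated Notch, each searched on both strands.
Fabp7: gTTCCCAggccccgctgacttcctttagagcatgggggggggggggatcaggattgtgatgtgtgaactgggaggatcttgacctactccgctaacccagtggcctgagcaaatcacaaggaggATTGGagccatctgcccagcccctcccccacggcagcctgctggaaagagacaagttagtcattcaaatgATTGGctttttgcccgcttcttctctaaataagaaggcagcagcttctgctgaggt
Vim: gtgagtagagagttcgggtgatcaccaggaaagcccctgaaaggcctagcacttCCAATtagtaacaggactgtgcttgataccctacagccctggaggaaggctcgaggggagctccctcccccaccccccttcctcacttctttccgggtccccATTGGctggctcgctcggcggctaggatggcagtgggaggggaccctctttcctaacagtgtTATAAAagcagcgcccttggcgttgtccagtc
Prom1: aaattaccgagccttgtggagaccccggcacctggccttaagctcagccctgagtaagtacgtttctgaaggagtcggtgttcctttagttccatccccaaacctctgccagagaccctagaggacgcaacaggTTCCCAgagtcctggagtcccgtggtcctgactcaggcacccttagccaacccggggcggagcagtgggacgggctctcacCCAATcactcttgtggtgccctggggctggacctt
Zbtb20: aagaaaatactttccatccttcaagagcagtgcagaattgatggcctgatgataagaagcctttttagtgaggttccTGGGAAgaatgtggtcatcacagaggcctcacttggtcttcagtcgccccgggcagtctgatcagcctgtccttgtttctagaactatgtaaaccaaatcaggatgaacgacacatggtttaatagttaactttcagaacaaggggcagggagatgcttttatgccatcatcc

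These windows differ in the letters they hold. The Vim window has a TATA box whose first base lies 32 bases before the start, and CCAAT boxes at 196 and, on the other strand, at 94 bases before it. Fabp7 has CCAAT boxes on the minus strand at 126 and 56 bases and the RBPJ core at 249 bases. Prom1 has a CCAAT box at 35 bases and the RBPJ core at 116 bases, and Zbtb20 has the RBPJ core alone, at 173 bases. A second Prom1 start, with its window at chr5:44094769-44095018 on the minus strand, has none of the 3 motifs. Of the members, 9 had an entry in the RefSeq table, with 16 windows among them, and Msi1 had none. Over these windows, 9 of 16 held a CCAAT box, against 33.8% of all 32851 windows of the table, 4 of 16 held the RBPJ core, against 21.6%, and 2 of 16 held a TATA box, against 12.4%. Windows of 1 gene can overlap, as the 3 of Msi2 do, so these counts are a description and name no bound site. The arrays measure transcripts and say nothing of these windows.

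The radial glia markers were expressed above background in both genotypes, and none of the 10 passed the test between them. The fit, limma on log2 values of all genes with Benjamini-Hochberg adjustment, called 0 of 19938 genes at an adjusted p of 0.05, a background of 0%, and 339 at an unadjusted p under 0.05, or 1.7%. Of the 10 members, 6 were higher and 4 lower in knockout by their means. Their median log2 difference was 0.01, against -0.01 over all genes. The median size of the difference was 0.05 for the members and 0.05 for all genes. Prom1 alone reached an unadjusted p under 0.05, and Prom1 alone had groups that did not overlap, which is 1 of 10 beside a background of 5.82% of all genes. By direction, 1 of 10 members was higher without overlap, beside 3.18% of all genes, and 0 of 10 were lower without overlap, beside 2.64%.

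**Figure D1:**
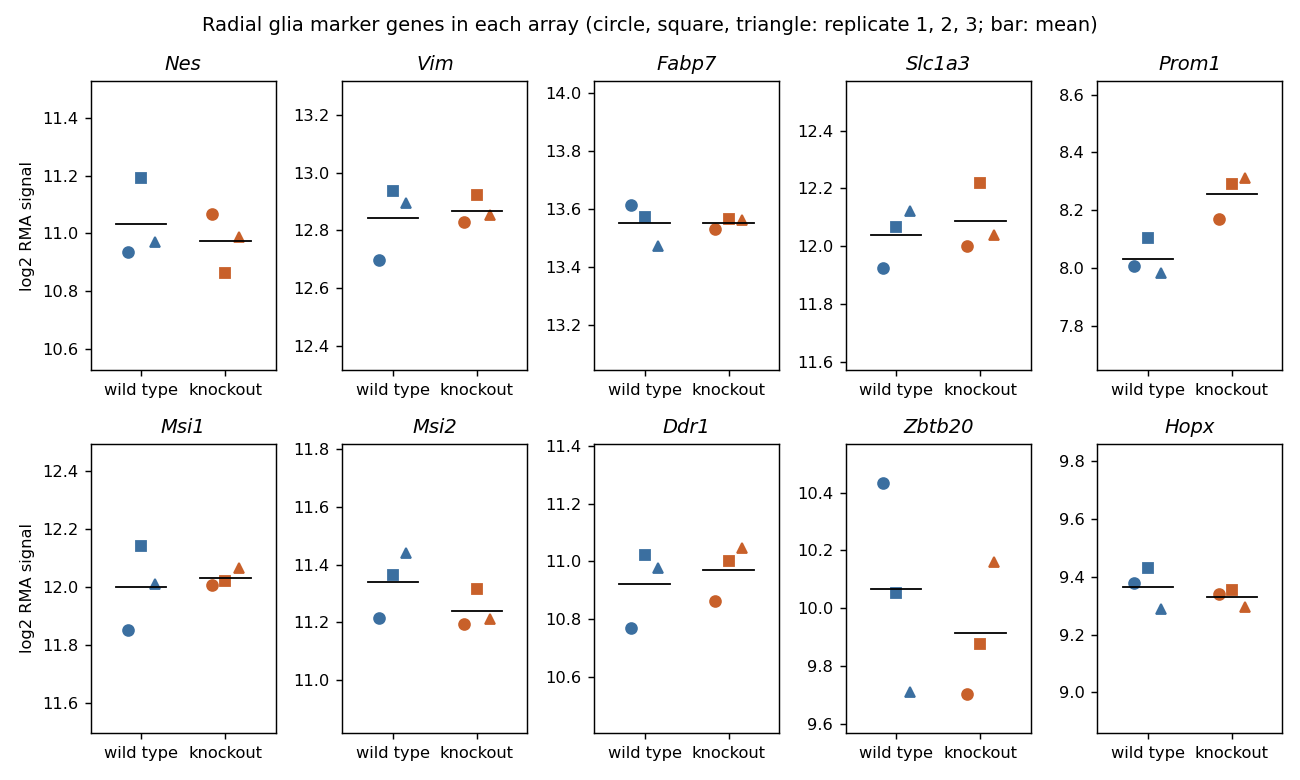
Signal of each radial glia marker in each of the 6 arrays, in log2 units, with wild type in blue and knockout in orange, replicates 1, 2 and 3 as circle, square and triangle, and the group mean as a bar. All panels span 1 log2 unit, and the groups separate for Prom1, with wild type between 7.98 and 8.10 and knockout between 8.17 and 8.31.

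Signals lay above background for all 10. As a guide to background, 95% of 1190 olfactory or vomeronasal receptor genes had a mean under 6.14, and every member exceeded it in all 6 arrays, as 14082 of the 19938 genes did. Group means ran from 8.03 for Prom1 in wild type to 13.55 for Fabp7 in both genotypes. A signal depends on the probes of its cluster as well as on the transcript, so these levels give no order of transcript amounts between genes.

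The intermediate filament genes of the set gave small differences whose intervals include 0. Nes encodes nestin, the filament protein of dividing neural progenitors. It read 10.94, 11.19 and 10.97 in wild type and 11.07, 10.86 and 10.99 in knockout, so the groups overlapped, with wild-type replicate 2 highest and knockout replicate 2 lowest. Its log2 difference was -0.06 (SE 0.10), and the 95% confidence interval from -0.28 to 0.16 spans 82.4% to 112% of the wild-type signal. Without wild-type replicate 2 the difference was 0.02. With array weights it was -0.20, with a limma p of 0.0405 before adjustment and 0.462 after. In that setting 2102 of 19938 genes had an unadjusted p under 0.05, against 339 in the main fit. Vim encodes vimentin, with which nestin assembles. It read 12.70, 12.94 and 12.90 in wild type and 12.83, 12.92 and 12.85 in knockout, all knockout values falling inside the wild-type range. Its difference was 0.02 (SE 0.09), with an interval from -0.17 to 0.22. Without wild-type replicate 1, the lowest for Vim, the difference was -0.05.

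Among the other filament genes, fixed as a list of 11, none passed, with 7 higher, 4 lower and a median of 0.06. Synm, the gene for synemin, a further partner of vimentin and nestin, read 8.28, 8.26 and 8.36 in wild type and 8.23, 8.20 and 8.21 in knockout. Its groups did not overlap, which made 1 of 11 lower in that way, beside 2.64% of all genes. The difference of -0.09 came with an interval of -0.24 to 0.07. The neurofilament gene Nefh did not overlap in the other direction, 1 of 11 beside 3.18%, at 0.10 with an interval from -0.06 to 0.27. Gfap, the filament of mature astrocytes, had means of 5.91 and 5.99, under the background guide.

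The lipid and glutamate handling markers likewise gave differences with intervals around 0. Fabp7 read 13.61, 13.57 and 13.47 in wild type and 13.53, 13.57 and 13.56 in knockout. The knockout values lay inside the wild-type range and within 0.04 of each other, as the SD of 0.02 against 0.07 in wild type also shows. The difference was 8.33e-05, with an interval from -0.17 to 0.17, or 89.2% to 112% of wild type. Slc1a3 read 11.92, 12.07 and 12.12 in wild type and 12.001, 12.22 and 12.04 in knockout, with the highest value in knockout replicate 2 and the lowest in wild-type replicate 1. Its difference was 0.05 (SE 0.09), with an interval from -0.16 to 0.26, and -0.02 without knockout replicate 2.

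Relatives of the members, 11 fatty acid-binding, glutamate or neutral amino acid transporter, prominin and discoidin receptor genes, gave no call either. Means were higher for 7 and lower for 4, and the median difference was 0.02. The astrocyte glutamate transporter Slc1a2 differed by -0.13, with an interval from -0.35 to 0.10. The neutral amino acid transporter Slc1a5 read 7.47, 7.27 and 7.50 in wild type and 7.57, 7.66 and 7.51 in knockout, without overlap, with a difference of 0.16 (interval -0.04 to 0.37). It was the 1 of 11 without overlap, beside 5.82% of all genes. Fabp5 and Fabp3, which encode other fatty acid-binding proteins, differed by 0.02 and 0.12. Prom2 differed by 0.00129 and Ddr2 by -0.10.

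Prom1 was the 1 member of 10 whose groups did not overlap, beside 5.82% of all genes. It encodes prominin-1, or CD133, a pentaspan protein of the membrane protrusions at the apical surface of progenitors. It read 8.01, 8.10 and 7.98 in wild type and 8.17, 8.29 and 8.31 in knockout, so that every knockout array exceeded every wild-type array. The gap between the nearest arrays, wild-type replicate 2 and knockout replicate 1, was smaller than the range within either group. Means were 8.03 ± 0.06 and 8.26 ± 0.08 (SD, n = 3 each). The difference was 0.23 (SE 0.08), with an interval from 0.05 to 0.40. That is 117% of the wild-type signal, with an interval from 104% to 132%. The limma p was 0.0181 before adjustment and 1 after adjustment over all genes and rounding, so the difference failed the correction although it was higher in 3 of 3 knockout arrays. Left-out arrays gave 0.20 to 0.27, with an unadjusted limma p of 0.0642 when knockout replicate 2 was absent and 0.0637 when knockout replicate 3 was.

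Some other gene lists shared the direction of Prom1 by their means, though not its order of arrays. In 4 marker lists every measured gene had a higher knockout mean, as 9260 of all 19938 genes did, but no list was tested and no gene of them passed. These were 9 of 9 endothelial genes, with a median of 0.17, 4 of 9 higher without overlap beside 3.18% of all genes, and a mean list level of 8.60 to 8.75 in wild type and 8.74 to 8.96 in knockout. The 6 measured oligodendrocyte precursor genes had a median of 0.13, 2 of 6 higher without overlap, and a mean list level of 8.63 to 8.71 in wild type and 8.78 to 8.85 in knockout. The 6 pericyte genes had a median of 0.10, with 1 of 6 higher without overlap, and the 5 ependymal genes a median of 0.05, with 0 of 5. The mean pericyte level was 8.73 in wild-type replicate 3, above 8.64 in knockout replicate 1. The mean ependymal level was highest in wild-type replicate 3, at 6.52, the array where Prom1 was lowest. Every endothelial, oligodendrocyte precursor and pericyte gene exceeded the background guide in all arrays, as did 2 of 5 ependymal genes. Of 8 astrocyte markers, 3 had higher and 5 had lower knockout means, and the median difference was -0.000196. Their differences ran from -0.33 to 0.26. Without overlap, 1 of 8 was higher, beside 3.18% of all genes, and 1 of 8 was lower, beside 2.64%. The part of these cell types in the Prom1 signal was not tested, and in bulk tissue a change in cell number cannot be told apart from a change in RNA per cell. Embryo sex also differed between the groups, since Y-linked genes were on in knockout replicates 1 and 3 only, with a mean of 8.20 and 7.86 against 4.32 to 4.48 in the other arrays. No wild-type array had that signal, so in knockout replicates 1 and 3 sex cannot be told apart from genotype. Knockout replicate 2, which lacks it like the wild-type arrays, read 8.29 for Prom1. A sex term gave a difference of 0.26, which rests on that 1 knockout array, and the part of sex in the Prom1 signal was not tested. The same term moved Nes to -0.17, Slc1a3 to 0.18, Vim to 0.08 and Ddr1 to 0.08, and it moved Msi2 to -0.03 and Hopx to -0.01. None of the 10 had an adjusted limma p under the threshold with it.

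**Figure D2:**
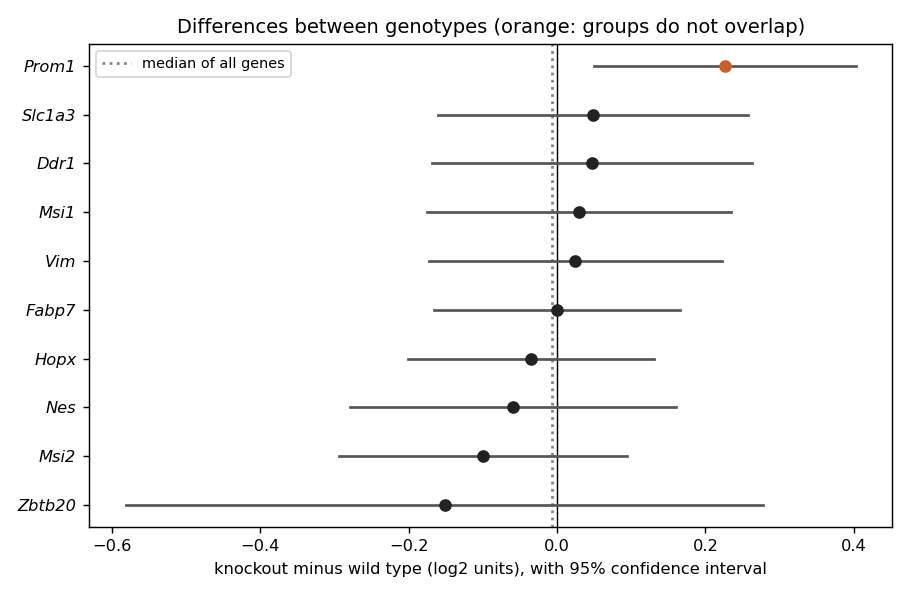
Knockout minus wild type for each radial glia marker in log2 units, with the 95% confidence interval from limma as a line and the median of all genes as a dotted line. The interval of Prom1, from 0.05 to 0.40, is the one that leaves out 0, and that of Zbtb20, from -0.58 to 0.28, is the widest of the 10.

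The RNA-binding proteins Musashi-1 and Musashi-2, which hold progenitors undifferentiated by repressing translation of chosen messages, gave small differences of opposite sign. Msi1 read 11.85, 12.14 and 12.01 in wild type and 12.01, 12.02 and 12.06 in knockout, with the knockout arrays inside the wild-type range. Its difference was 0.03 (SE 0.09), with an interval from -0.18 to 0.23, turning to -0.05 without wild-type replicate 1 and growing to 0.10 without wild-type replicate 2. Msi2 read 11.22, 11.36 and 11.44 in wild type and 11.20, 11.32 and 11.21 in knockout, with both knockout replicates 1 and 3 just under the lowest wild-type array. Its difference was -0.10 (SE 0.08), with an interval from -0.29 to 0.09. Whether the difference of Msi1 departs from that of Msi2 was not tested. Msi2 was lower without overlap once wild-type replicate 1 or knockout replicate 2 was left out, where 16.2% and 11% of all genes also did not overlap.

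Ddr1 encodes a discoidin domain receptor tyrosine kinase that binds collagen. It read 10.77, 11.02 and 10.98 in wild type and 10.86, 11.00 and 11.05 in knockout, overlapping, with replicate 1 the lowest of each group. Its difference was 0.05 (SE 0.09), with an interval from -0.17 to 0.26, falling to -0.03 with wild-type replicate 1 left out and reaching 0.10 with knockout replicate 1 left out. Hopx encodes a small homeodomain protein that does not bind DNA and marks outer radial glia in cortex. It read 9.38, 9.43 and 9.29 in wild type and 9.34, 9.35 and 9.30 in knockout, within the wild-type range. Its difference was -0.04 (SE 0.07), with an interval from -0.20 to 0.13. With wild-type replicate 3 left out, Fabp7 and Hopx were lower in knockout without overlap, at -0.04 and -0.07, where 23.5% of all genes did not overlap.

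Zbtb20, a zinc finger repressor expressed in radial glia and astrocytes, varied far more between arrays than the other 9 members. It read 10.43, 10.05 and 9.71 in wild type and 9.71, 9.88 and 10.16 in knockout, a range of 0.73 log2 units or 1.66-fold, and the groups overlapped between 9.71 and 10.16. Its SD within groups, 0.30, stood at percentile 97.9 of all genes. The difference was -0.15 (SE 0.19), with an interval from -0.58 to 0.28. Leaving out wild-type replicate 3 gave -0.33 and leaving out wild-type replicate 1 gave 0.03, so its direction rests on wild-type replicate 1.

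The second Zbtb20 cluster gave a narrower spread. It read 9.99, 9.86 and 9.78 in wild type and 9.73, 9.76 and 9.91 in knockout, a range of 0.26 log2 units or 1.20-fold. In both clusters wild-type replicate 1 was highest, knockout replicate 3 came next and knockout replicate 1 was lowest. The second cluster differed by -0.07, with an interval from -0.29 to 0.15. The sources used here do not say which part of the transcript each cluster reads.

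Apart from Zbtb20, spread was ordinary or small. The SD within groups was 0.05 for Fabp7 and Hopx, at percentiles 10.1 and 10.5 of all genes, 0.07 for Prom1 at percentile 19.5, and between 0.09 and 0.12 for Msi2, Vim, Msi1, Slc1a3, Ddr1 and Nes. The median was 0.10 over the members and 0.12 over all genes. Fabp7 and Hopx thus spanned 1.10-fold each over all 6 arrays, and Prom1 and Nes 1.26-fold and 1.25-fold.

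For several members the same array stood lowest or highest. Wild-type replicate 1 was the lowest array for 4 of 10, Vim, Slc1a3, Msi1 and Ddr1, as it was for 29.0% of all genes, and was highest for Fabp7 and Zbtb20. Wild-type replicate 2 was the highest array for Nes, Vim, Msi1 and Hopx, beside 14.3% of all genes. It lay above the gene mean for 9 of 10 members, beside 10306 of all 19938 genes. Knockout replicate 2 lay above the gene mean for 8 of 10, beside 9292 of all genes. Cell cycle genes also moved in wild-type replicates 1 and 2. Of 14 measured, 9 were lowest in wild-type replicate 1 and 7 were highest in wild-type replicate 2, with a mean list level of 8.42 and 8.77 there and 8.62 to 8.74 in the other 4 arrays. Of 10 neuron markers, 4 were highest in wild-type replicate 1, beside 19.0% of all genes. Wild-type replicate 2 was lowest for 4 of 10, beside 12.4%, and wild-type replicate 3 for 5 of 10, beside 18.6%. The part of these lists in the members' values was not tested.

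**Figure D3:**
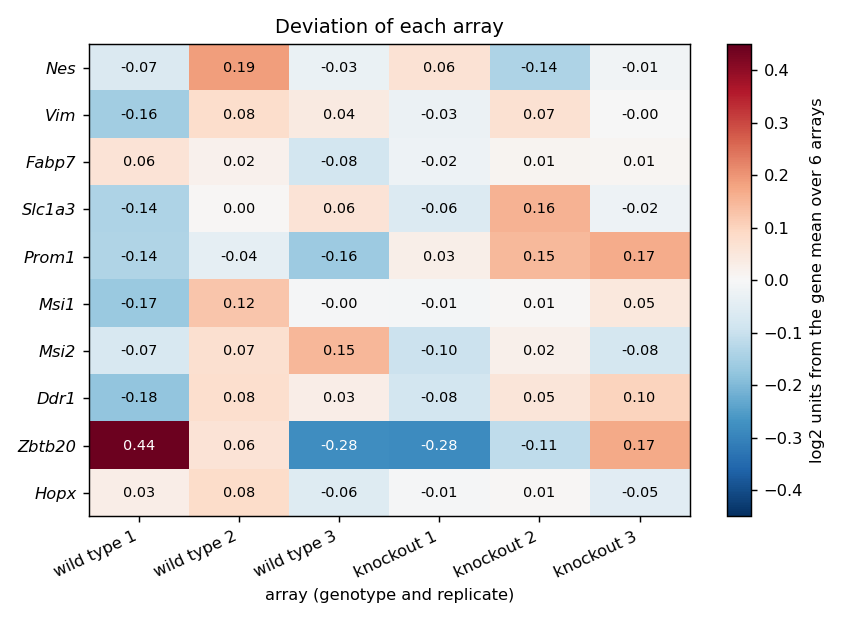
Deviation of each array from the mean of that gene over 6 arrays, in log2 units, for the 10 radial glia markers in rows and the arrays in columns. Zbtb20 has the darkest cells, at 0.44 in wild-type replicate 1 and -0.28 in wild-type replicate 3 and knockout replicate 1. Wild-type replicate 2 is above the mean in 9 of 10 rows, beside 10306 of all 19938 genes.

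A wider list of 34 radial glia and progenitor genes outside the set gave a like picture. None passed, 21 were higher and 13 lower by their means, and the median was 0.03. Of these, 33 exceeded the background guide in all arrays, the exception being Nr2e1. The 4 higher genes of smallest p were Moxd1, a monooxygenase-like marker of outer radial glia, the progenitor factor Sox2, the early astrocyte receptor Fgfr3, and the progenitor factor Pax6. Moxd1 read 7.67, 7.82 and 8.19 in wild type and 8.18, 8.25 and 8.30 in knockout, touching only where wild-type replicate 3 exceeded knockout replicate 1. Its difference was 0.35, with an interval from 0.05 to 0.65 and an unadjusted limma p of 0.0267. Fgfr3 differed by 0.17, Pax6 by 0.14 and Sox2 by 0.12, each with an interval that includes 0.

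The 4 lower genes of smallest p on that list were Phgdh, which makes serine, at -0.13, the hedgehog effector Gli3 at -0.16, the integrin subunit Itgb1 at -0.08 and the receptor Notch1 at -0.10, all with intervals that include 0. Ttyh1, a membrane protein of progenitors, had groups that did not overlap, at a difference of only 0.03, and was named after its values were seen. It was the 1 gene of 34 to do so, beside the background of 5.82%. Wild-type replicate 1 was the lowest array for 16 of the 34, beside 29.0% of all genes.

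**Figure D4:**
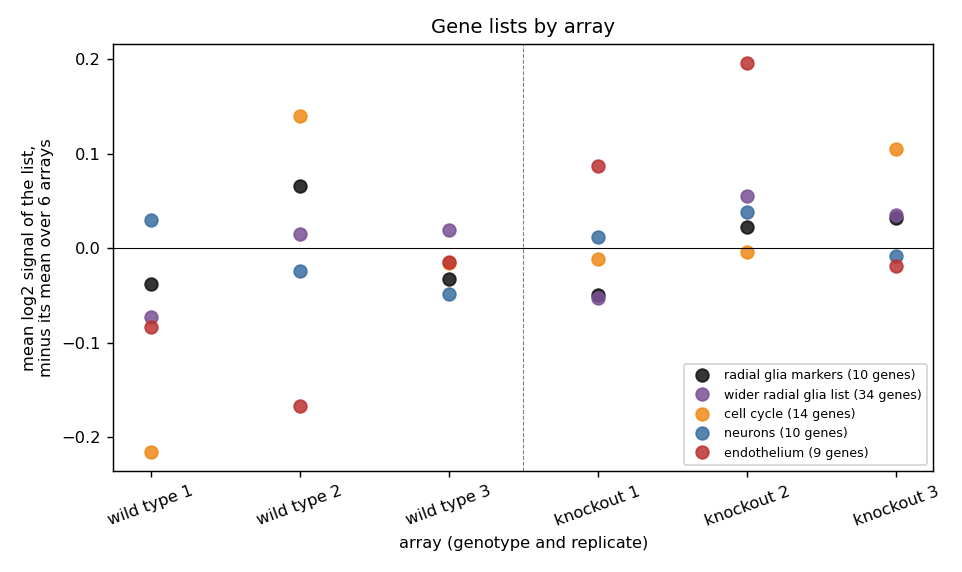
Mean log2 signal of 5 gene lists in each array, minus the list's own mean over the 6 arrays, with wild type left of the dashed line and knockout right of it. Cell cycle genes run from 8.42 in wild-type replicate 1 to 8.77 in wild-type replicate 2 before subtraction, the radial glia markers from 11.07 to 11.19, and the endothelial genes from 8.60 to 8.96.

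The arrays were checked as a whole against the labels. Array medians lay between 6.96 and 7.10. Tnc read 10.72, 10.22 and 10.02 in wild type and 9.64, 9.76 and 9.47 in knockout, without overlap, at a difference of -0.69 with an exact two-sided permutation p of 0.1, the smallest that 3 against 3 allow. Signal thus remained in the arrays labelled knockout, and the sources used here do not say which part of Tnc was removed or which part is read. In the limma fit Tnc had a p of 0.0038 before adjustment and did not pass after it. The fit thus did not call the knocked-out gene itself, and a member that did not pass is not shown to be unchanged. The first principal component held 49.0% of the variance, with wild-type replicates 1 and 3 at its ends. All 10 neuron markers exceeded the background guide in every array. So did 5 of 8 skeletal muscle, 4 of 6 cartilage, 7 of 8 meningeal, 7 of 8 microglial, 6 of 6 pericyte, 3 of 4 Schwann and neural crest, 2 of 2 erythroid and 2 of 5 ependymal markers.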

How the data were processed

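Each of the 6 total RNA samples was amplified, biotin-labelled and hybridised to 1 Affymetrix array, per the labels' protocols. The authors deposited log2 values made with RMA, per the submitters' processing notes, for 35557 transcript clusters. RMA corrects background, equalises the arrays and summarises probes, so it can compress small differences and reduce global shifts. Neither was measured here, and array medians of the deposited values still ran from 6.96 to 7.10. Array number limits precision. The sources used here name no software version and no genome build.

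Clusters with 1 symbol, 21789 of them, were named from the platform annotation and updated by entrez identifier through RefSeq (GRCm38.p6), where 19856 of 19938 genes matched. Clusters with several symbols (1621) or none (12147) entered no comparison between genes. For 999 genes with several clusters the one of highest mean was used. Genotypes were compared with limma 3.58.1 in R 4.3.3 (lmFit and eBayes, group as the only term, no filter), with two-sided p adjusted over all genes and a threshold of 0.05. Medians and counts of lists carry no test. Genes named are the members, Tnc, the sex genes, up to 4 higher and 4 lower of the wider list by smallest p, and genes of the filament and family lists. Members and lists were chosen with earlier results of these data known. Alternatives were each array left out, a replicate block, a sex term, filters on dim genes, an intensity trend, array weights, other scalings and other cluster rules. Figures were drawn with matplotlib 3.10.9.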

Additional observations from a re-analysis of the deposited data

How the results depend on the processing

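No member passed the adjusted threshold under any of 16 alternatives, where the lowest adjusted limma p of a member was 0.427 (Prom1 with array weights; over its alternatives Prom1 ran from there up to 1). Prom1, Msi2 and Hopx kept their sign under all 16, and the other 7 changed sign with some array left out. Several of the 16 are no check of sign. The replicate block, the filters on dim genes, the intensity trend and the test of all clusters cannot change a member's difference. Averaging clusters cannot change it for a member with 1 cluster. Over left-out arrays the log2 difference ran from -0.108 to 0.0188 for Nes, -0.0478 to 0.0709 for Vim, -0.0405 to 0.0302 for Fabp7, -0.0178 to 0.0914 for Slc1a3, 0.20 to 0.27 for Prom1, -0.0456 to 0.0996 for Msi1, -0.16 to -0.05 for Msi2, -0.0301 to 0.10 for Ddr1, -0.33 to 0.0317 for Zbtb20 and -0.07 to -0.00307 for Hopx. The count of members without overlap ran from 1 to 3 of 10. It was 2 without wild-type replicate 1, beside 16.2% of all genes, and 2 without knockout replicate 2, beside 11%. It was 3 without wild-type replicate 3, beside 23.5%. The count of all genes past the threshold ran from 0 to 4, the 4 being the sex genes Xist, Uty, Eif2s3y and Kdm5d without knockout replicate 2. With all 35557 clusters tested, 9 passed, none of them a member. Array weights used limma's gene-by-gene method, chosen after seeing the data because the default stopped before converging, and gave -0.0138 for Vim, -0.0137 for Fabp7, -0.0621 for Msi1 and -0.00513 for Ddr1; median centring gave -0.00188 for Fabp7. For these sign changes the cause was not tested. The median over the members ran from -0.04 to 0.04 and that of the wider list from -0.01 to 0.06 over all alternatives. Replicate numbers are shared between the genotypes, but the labels do not say that they pair samples, and the deviations of same-numbered arrays correlated at 0.345, -0.0746 and 0.449 for numbers 1, 2 and 3. The highest correlation of the wild-type array with another number was 0.0459, 0.283 and 0.00512, so numbers 1 and 3 matched best with themselves and number 2 did not, and whether the numbers pair the samples is not settled. With the replicate number as a block, no gene passed, and 636 genes had an unadjusted limma p under 0.05 against 339. Each number holds 1 array of each genotype, so the block cannot change a difference, only its p. For Prom1, at 0.23 by design, the unadjusted limma p was 0.0207. The block changed no call.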
